A study of Saccharomyces cerevisiae with 5 samples.

Results

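Transcript levels of 9 yeast genes for activators of respiration and gluconeogenesis were compared between a strain that lacks the sulfate permease gene SUL1 and its wild type. The genes were HAP1, HAP2, HAP3, HAP4, HAP5, CAT8, ADR1, SIP4 and RDS2, chosen by symbol, and all 9 were found among the 5886 genes of both expression tables. The libraries hold messenger RNA of Saccharomyces cerevisiae grown at 30 °C in YPD, a rich medium with 2% glucose. There were 3 libraries of a SUL1 knockout in BY4741, harvested at an optical density of 0.6, and 2 libraries of the wild type with no density given. The design text speaks of 3 replicates in each group, and the sample list used here holds 2 of the wild type. Both groups carry the S288C strain label, and BY4741, a haploid of mating type a, lacks functional HIS3, LEU2, MET17 and URA3 as background. The labels do not say how SUL1 was deleted or whether replicates came from more than 1 clone.

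Yeast in plentiful glucose ferments and holds respiration and gluconeogenesis down. When glucose runs out, the kinase Snf1 releases these genes, partly by lifting repressors such as Mig1 and partly by activating the factors described here. Hap2, Hap3 and Hap5 form the DNA-binding core that recognises the CCAAT box, and Hap4 joins it as the activating subunit whose gene is the one controlled by carbon source. Hap1 responds to heme and thereby to oxygen. Cat8 and Sip4 act through the carbon source response element (CSRE) of gluconeogenic and glyoxylate cycle genes, Rds2 joins them at gluconeogenic promoters, and Adr1 drives ethanol and fatty acid use. Protein kinase A, which the study links to SUL1 loss, is known to restrain Adr1. In S288C-derived strains a Ty1 element lies at the 3′ end of HAP1 and weakens the protein.

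SUL1 itself was listed at 0 FPKM (fragments per kilobase, scaled to library depth) in all 3 SUL1 knockout libraries, against 8.28 and 9.78 FPKM in the wild-type libraries. Knockout libraries held an estimated 24500000 to 24850000 fragments, and wild-type libraries 22550000 to 24950000. At that depth 3 fragments of SUL1 would be at most 0.0503 FPKM in a knockout library. FPKM summed to between 1837934 and 1947861 over the knockout libraries, against 1732634 and 1808700 over the wild-type ones. Knockout replicate 2 stood apart: without it 894 of 5710 genes passed the test described next, against 15 of 5712 with all 5 libraries. The mating type a markers STE2, AGA2 and BAR1 summed to between 218.51 and 287.63 FPKM in knockout libraries, against 273.61 and 287.65 FPKM in wild-type libraries. The 4 alpha markers summed to between 25.7 and 28.92 FPKM in knockout libraries, against 27.78 and 28.09 FPKM in wild-type libraries. Of the alpha markers, MF(ALPHA)1 stayed at or under 0.23 FPKM in knockout libraries and 0.80 FPKM in wild-type ones. The others were higher. MF(ALPHA)2 had 6.12 to 8.44 FPKM in knockout libraries, against 4.97 and 7.6 FPKM in wild-type ones. STE3 had 9.74 to 11.76 FPKM against 11.58 and 8.38 FPKM, and SAG1 8.26 to 9.55 FPKM against 10.43 and 11.6 FPKM. The a marker BAR1 had 8.6 to 14.03 FPKM against 16.95 and 11.01 FPKM.

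The proteins fall into DNA-binding classes that can be read in the coding sequence, shown here because they define the families compared below. HAP1, CAT8, SIP4 and RDS2 each carry in frame the spaced set of 6 cysteine codons of a fungal zinc cluster, a pattern present in 57 of 6002 nuclear protein-coding genes (0.95%) of build R64. The coding strand is printed 5′ to 3′, with the cysteine codons in capitals.
CAT8 (chrXIII:831039-831122, reverse strand): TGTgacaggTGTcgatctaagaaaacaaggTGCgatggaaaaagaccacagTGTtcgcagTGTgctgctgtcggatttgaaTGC
SIP4 (chrX:266061-266144, forward strand): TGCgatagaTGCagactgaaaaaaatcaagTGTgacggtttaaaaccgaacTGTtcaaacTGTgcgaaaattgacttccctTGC
HAP1 (chrXII:646604-646693, forward strand): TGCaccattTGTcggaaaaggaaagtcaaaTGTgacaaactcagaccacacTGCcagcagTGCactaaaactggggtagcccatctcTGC
RDS2 (chrXVI:301094-301180, reverse strand): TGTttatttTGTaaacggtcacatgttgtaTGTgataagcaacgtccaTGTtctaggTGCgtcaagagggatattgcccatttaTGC
CAT8 and SIP4 have the same spacing between cysteine codons and share 48 of 84 bases (57.1%) over this stretch. RDS2 and HAP1 differ from them in the length of the loops.

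ADR1 has instead 2 zinc fingers with paired cysteines and histidines, a pattern found in 46 of 6002 genes (0.766%). The capitals mark the cysteine and histidine codons that bind zinc.
ADR1 finger 1 (chrIV:895350-895412, forward strand): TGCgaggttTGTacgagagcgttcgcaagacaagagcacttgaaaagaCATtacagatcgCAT
ADR1 finger 2 (chrIV:895434-895499, forward strand): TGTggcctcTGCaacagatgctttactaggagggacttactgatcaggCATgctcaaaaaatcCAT

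None of the 9 activator genes changed past the threshold in the SUL1 knockout, and the largest positive and negative estimates were those of HAP4 and HAP1. Differences were tested with limma on log2(FPKM + 1) over 5712 genes that averaged 1 FPKM or more, a filter that all 9 passed, and a gene was called at a Benjamini-Hochberg adjusted p under 0.05. Of all genes tested, 0.193% were called higher and 0.07% lower, so few calls would be found in any set of 9. At an unadjusted p under 0.05 there was 1 of the 9, HAP5, which was lower, as were 11.6% of all genes by that measure. As a library pools a whole culture, fewer cells that express a gene and less RNA per cell cannot be told apart. Log2 fold changes were positive for 5 and negative for 4 of the activators, with a median of 0.14, beside -0.07 for all genes tested. That median turned to -0.04 without knockout replicate 2 and to -0.06 without wild-type replicate 2, and was 0.07 with equal FPKM sums and 0.06 over the 8 activators that averaged 5 FPKM or more. As folds of FPKM + 1, the 95% intervals of the 9 all lay between 0.601 and 1.83, and 8 of the 9 held no change. Adding 1 narrows the intervals of low genes. With 0.1 added instead, the log2 fold change of CAT8 was 0.17 ± 0.32 (SE), against 0.14 ± 0.25 (SE). The groups did not overlap for 2 activators that were higher, HAP3 and HAP4, where 13.1% of all genes were so, and for 1 that was lower, HAP5, where 28% were. With libraries scaled to equal FPKM sums these became 0 higher and 2 lower (HAP1 and HAP5), as the same scaling moved all genes to 6.97% higher and 44% lower. With median-ratio scaling they were 3 higher (HAP3, HAP4 and RDS2) and 1 lower (HAP5), beside 19.6% and 19.7% of all genes. The labels give the replicates as biological, without saying that they came from separate starting cultures.

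**Figure D1:**
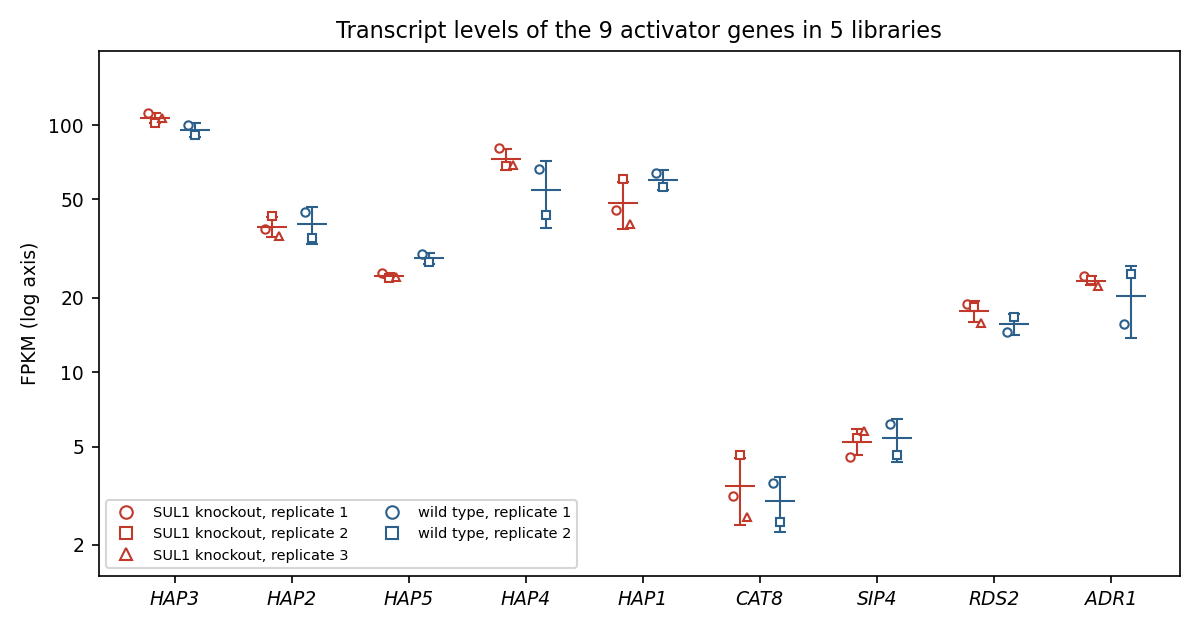
FPKM of each activator gene on a log axis, with SUL1 knockout libraries (red, n = 3) left of wild-type libraries (blue, n = 2); symbols are libraries, horizontal bars are means and whiskers are ± SD. HAP3 and HAP4 in the knockout lie above both wild-type libraries and HAP5 below both, and CAT8 and SIP4 are the lowest of the 9 in every library.

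HAP3, a histone-fold subunit of the CCAAT-binding core (YBL021C, chrII:181660-182094), had the highest FPKM of the 9. It had 112.09, 101.81 and 106.81 FPKM in knockout replicates 1, 2 and 3, against 100.06 and 91.45 FPKM in wild-type replicates 1 and 2. All knockout libraries were above both wild-type libraries, by a small margin. The log2 fold change was 0.16 ± 0.09 (SE, 95% interval -0.06 to 0.37), with an adjusted p of 0.375 (limma). It was 0.04 with the length trend removed and 0.09 without wild-type replicate 2.

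HAP2, the subunit that contacts the CCAAT box (YGL237C, chrVII:52731-53528), had 38.05, 42.73 and 35.55 FPKM in the knockout, against 44.66 and 34.95 FPKM in the wild type. The wild-type libraries enclosed all 3 knockout libraries. Its log2 fold change of -0.03 ± 0.13 (SE) had an interval from -0.35 to 0.28 (limma, adjusted p = 0.917).

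HAP5, the other histone-fold subunit (YOR358W, chrXV:1010161-1010889), had 25.17, 24.13 and 24.37 FPKM in the knockout, against 30.06 and 27.95 FPKM in the wild type. The knockout libraries lay close together and all below the wild type. The log2 fold change was -0.23 ± 0.10 (SE), with an interval from -0.46 to -0.005, and did not pass over all genes (limma, adjusted p = 0.260, unadjusted p = 0.0464). At about 345 to 365 fragments per knockout library and 368 to 438 per wild-type library, counting error alone is 4.78% to 5.38% of a value. The coefficient of variation among knockout libraries, 2.22%, was smaller than that, so their closeness is not a measure of precision.

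HAP4, the activating subunit (YKL109W, chrXI:232227-233891), had the largest positive estimate. It stood at 81.16, 68.53 and 69.15 FPKM in the knockout, against 66.65 and 43.09 FPKM in the wild type. The highest wild-type library fell just short of the lowest knockout library, and the wild-type libraries differed 1.55-fold from each other. Means were 72.9 ± 7.12 FPKM in the knockout (SD, n = 3), against 54.9 ± 16.7 FPKM in the wild type (SD, n = 2). The log2 fold change of 0.43 ± 0.19 (SE, interval -0.01 to 0.88) was not called (limma, adjusted p = 0.275). It was 0.74 without wild-type replicate 1 and 0.12 without wild-type replicate 2, so its size rested on which wild-type library was kept.

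The balance of HAP4 against its DNA-binding partners was read as a ratio within each library, which no scaling between libraries can move. The length trend can move this ratio. Removing that trend shifted the log2 fold change of HAP4 by 0.12, HAP2 by -0.01, HAP3 by -0.12 and HAP5 by -0.03. The log2 ratio of HAP4 to the geometric mean of HAP2, HAP3 and HAP5 was 0.77, 0.54 and 0.61 in the knockout, against 0.38 and -0.05 in the wild type. All knockout ratios were above both wild-type ratios. The means differed by 0.48 on the log2 scale, at 0.64 ± 0.12 in the knockout, against 0.16 ± 0.31 in the wild type (SD, n = 3 and n = 2; two-sided exact permutation test, p = 0.2, the smallest that 3 against 2 libraries can give). The difference was 0.69 without wild-type replicate 1 and 0.26 without wild-type replicate 2.

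The profile of HAP4 across the 5 libraries was most like those of YOR008C-A, MTH1 and YMR206W, by the root mean square difference of centred log2(FPKM + 1) values. The differences were 0.0451, 0.0505 and 0.0549, the smallest found in a search of the 5712 genes tested. Such a search over 5 libraries that form only 2 groups finds close profiles by itself, so the likeness is only described. MTH1, a repressor of hexose transporter genes that is turned over in glucose, had 45.17, 39.68 and 38.84 FPKM in the knockout, against 35.97 and 22.27 FPKM in the wild type.

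**Figure D2:**
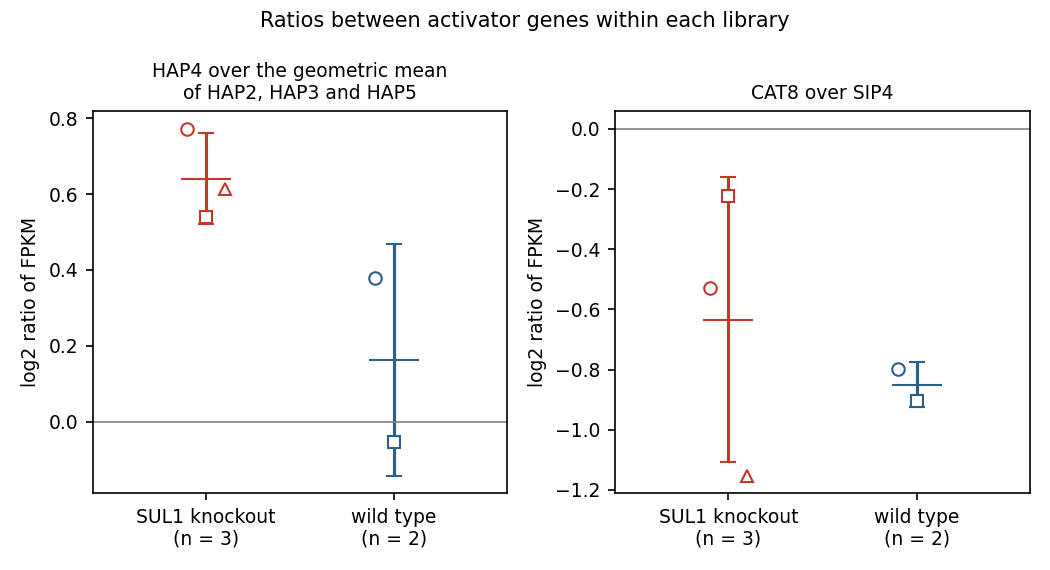
Log2 ratios of FPKM within each library, with the SUL1 knockout left of the wild type; symbols are libraries, bars are means and whiskers are ± SD. For HAP4 over its partners the 3 knockout ratios lie between 0.54 and 0.77, above both wild-type ratios, whereas for CAT8 over SIP4 the knockout ratios spread around those of the wild type.

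HAP1 (YLR256W, chrXII:646415-650923) had the most negative estimate. It stood at 45.14, 60.34 and 39.96 FPKM in the knockout, against 64.21 and 56.12 FPKM in the wild type. Knockout replicate 2 fell between the wild-type libraries and the other knockout libraries lay below them. The log2 fold change was -0.32 ± 0.17 (SE, interval -0.73 to 0.09) and was not called (limma, adjusted p = 0.342).

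Leaving out knockout replicate 2 gave HAP1 -0.49 ± 0.11 (SE), which then passed (limma, adjusted p = 0.0251), when 10.4% of all genes were called lower. Transcript length moved with this value. HAP1 has the longest coding sequence of the 9, at 4509 bp, and once the trend of each library with coding length was removed its log2 fold change was -0.02 ± 0.13 (limma, adjusted p = 0.951). With the length trend removed and knockout replicate 2 left out it was -0.12 (limma, adjusted p = 0.502). The same correction raised the other long genes, CAT8 by 0.29 and ADR1 by 0.28, and lowered HAP3, the shortest, by 0.12. Over the 15 alternative fits the adjusted p of HAP1 (limma) ran from 0.0103 to 0.951.

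CAT8 (YMR280C, chrXIII:827028-831329), the zinc cluster activator that opens the gluconeogenic programme when glucose is exhausted, had the lowest FPKM of the 9. It had 3.15, 4.63 and 2.59 FPKM in the knockout, against 3.55 and 2.48 FPKM in the wild type. Knockout replicate 2 held the highest value and the groups overlapped. Its log2 fold change of 0.14 ± 0.25 (SE) had an interval from -0.45 to 0.73 (limma, adjusted p = 0.776), and turned to -0.04 without knockout replicate 2. The coefficient of variation was 30.5% among knockout libraries and 25.1% among wild-type ones, several times the counting error of 4.61% to 6.56% that about 232 to 472 fragments per library give. Levels of CAT8 ranked above 5.50% to 6.90% of all listed genes in knockout libraries and 5.23% to 5.81% in wild-type ones.

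SIP4 (YJL089W, chrX:265926-268415), whose own expression needs Cat8, had 4.54, 5.41 and 5.76 FPKM in the knockout, against 6.17 and 4.64 FPKM in the wild type. The groups overlapped. The log2 fold change was -0.03 ± 0.18 (SE, interval -0.47 to 0.40; limma, adjusted p = 0.934), and it became 0.16 with the length trend removed. The log2 ratio of CAT8 to SIP4 was -0.53, -0.22 and -1.15 in the knockout, against -0.80 and -0.90 in the wild type (two-sided exact permutation test over 3 and 2 libraries, p = 0.6). SIP4 was above CAT8 in all 5 libraries.

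RDS2 (YPL133C, chrXVI:299888-301228), a zinc cluster regulator of gluconeogenic genes, had 18.87, 18.41 and 15.76 FPKM in the knockout, against 14.53 and 16.74 FPKM in the wild type. Of the knockout libraries only replicate 3 was below the higher wild-type value. Its log2 fold change was 0.17 ± 0.13 (SE, interval -0.14 to 0.47; limma, adjusted p = 0.488), and was 0.07 without wild-type replicate 1 and 0.26 without wild-type replicate 2.

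ADR1 (YDR216W, chrIV:895035-899006) had 24.42, 23.71 and 22.34 FPKM in the knockout, against 15.67 and 24.96 FPKM in the wild type. Its knockout libraries agreed closely, with a coefficient of variation of 4.50%, whereas the wild-type libraries differed enough to give 32.3%. The log2 fold change of 0.23 ± 0.18 (SE, interval -0.20 to 0.67) was not called (limma, adjusted p = 0.491), and was -0.09 without wild-type replicate 1. Of the 9, ADR1 and RDS2 read lower in wild-type replicate 1 than in the other wild-type library, and the remaining 7 read higher there.

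The order of FPKM was HAP3, HAP4, HAP1, HAP2, HAP5, ADR1, RDS2, SIP4 and CAT8 by the mean over 5 libraries. FPKM divides by length but keeps uneven coverage of long transcripts, so the order is approximate between genes of unlike length. HAP3 at 102 FPKM (435 bp) and CAT8 at 3.28 FPKM (4302 bp) marked the ends of this order. Ranges over the 5 libraries did not overlap between HAP3 and HAP4, between HAP2 and HAP5, or between RDS2 and SIP4. They overlapped for every other pair of neighbours, although within a library the gene ranked higher was above the next in all 5 libraries for each of these pairs except HAP4 and HAP1, where it was so in 4 of 5.

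**Figure D3:**
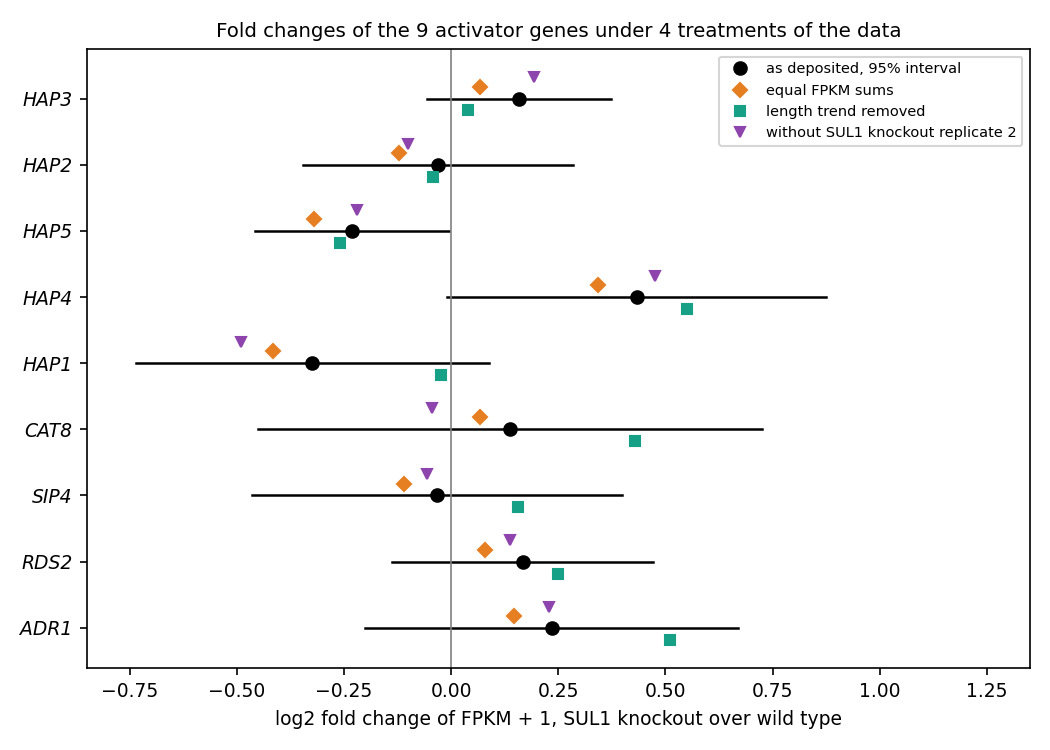
Log2 fold changes of FPKM + 1, SUL1 knockout over wild type, for the 9 activator genes; black points and lines are the estimate and 95% interval with values as deposited, and coloured symbols are estimates with equal FPKM sums, with the length trend removed, or without knockout replicate 2. The black intervals hold 0 for 8 genes and stop just below it for HAP5, and the symbols of HAP1 spread from -0.49 to -0.02.

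Promoters of the 9 genes and of their reported targets were read over the 500 bases before each start codon, on both strands, in 6000 nuclear genes of R64. The CSRE core, searched by its fixed bases with every ambiguous letter taken as any base, occurred in 7.25% of all promoters, in 10 of 12 genes listed as Cat8 or Sip4 targets and in 2 of the 9 activators, SIP4 and HAP1. The 500 bases reach into the upstream neighbour for HAP1, HAP2, HAP3, HAP5 and RDS2, where the gap is 258 to 487 bases. The HAP1 core begins 465 bases before the start codon, and the gap to YLR255C is 461 bases, so it overlaps that gene. A match describes the letters and is not evidence of binding. Of target genes described below, MDH2 has 3 matches, PCK1 2, ICL1 1 and ADY2 1, and that of ADY2 is not printed. For SIP4, MDH2, PCK1 and ICL1, 1 site each is printed 5′ to 3′ on the strand that reads as the core, with the core in capitals.
SIP4 (chrX:265642-265670, forward strand): ccattttcgCCGTTCGACCGgtgttttgg
MDH2 (chrXV:83278-83306, reverse strand): ttactttgcCCATTCGGCCGtagccgttc
PCK1 (chrXI:630662-630690, forward strand): accgagcttCCTTTCATCCGgcgcggctg
ICL1 (chrV:287293-287321, reverse strand): cccaggtttCCATTCATCCGagcgatcac
The SIP4 site begins 275 bases before the start codon. CCAAT, the box of the Hap complex, is common, in 62.4% of all promoters, 14 of 17 listed Hap2/3/4/5 targets and 5 of the 9 activators, HAP4 and CAT8 among them. It was also in 12 of 12 listed Cat8 or Sip4 targets, 6 of 8 Hap1 targets and 9 of 12 Adr1 targets. The Hap1 element, searched with its fixed bases, was in 0.35% of all promoters and in 0 of 8 listed Hap1 targets and 0 of the 9 activators. A search this strict misses sites that vary in those bases, so the absence says nothing of Hap1 binding. The CSRE core was in 4 of 12 Adr1 targets and in none of the Hap1 or Hap2/3/4/5 targets. The Mig1 core was searched as GCGGGG and also as GTGGGG, and further as CCGGGG and as CTGGGG. It was in 22.7% of all promoters and in CAT8, HAP1 and HAP4, as well as in 11 of 17 Hap2/3/4/5 targets, 4 of 8 Hap1 targets, 8 of 12 Cat8 or Sip4 targets and 4 of 12 Adr1 targets. The CAT8 promoter holds 2 Mig1 cores and 2 CCAAT boxes, which share no letters. The stress response element AGGGG was searched as well and was in 34.1% of all promoters and in 4 of the 9 activators.
CAT8 CCAAT box (chrXIII:831513-831535, forward strand): tgtcactgaCCAATcatgctttc
CAT8 Mig1 core nearer the start codon (chrXIII:831530-831553, reverse strand): tgatattttGTGGGGtacgaaagc
HAP4 CCAAT box (chrXI:232125-232147, reverse strand): actaggagaCCAATaaatatgtg

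Genes that the activators are reported to control, and the regulators above them, were taken from 6 lists of 70 genes in all, and none of the 70 was called (limma, 0 of 70, with 11 at an unadjusted p under 0.05, against 18.6% of all genes). With all 5 libraries none of the 70 was called with equal FPKM sums, median-ratio scaling or the length trend removed either. Without knockout replicate 2, 6 of the 70 were called higher and 5 lower, when 5.22% and 10.4% of all genes were. The 6 were MIG2, MDH2, CIT1, CYC7, ACO1 and ALD4, and the 5 were CYC1, RTG1, TUP1, YHB1 and ROX1. With the length trend removed as well, TUP1, YHB1 and ROX1 were no longer called (limma, adjusted p = 0.229, 0.116 and 0.123), and the other 8 still were. In that fit, added after the data were seen, 195 of 5710 genes were called higher and 93 lower. The lists below are read beside all genes tested, of which 3578 of 5712 had negative values. Without overlap between the groups, 13.1% of all genes tested were higher in the knockout and 28% lower.

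Targets of the Hap complex, which are subunits of the respiratory chain, enzymes of the citric acid cycle and the heme synthesis gene HEM1, had values of both signs. Of 17, 10 had positive and 7 negative log2 fold changes, with a median of 0.07 that became -0.02 with equal FPKM sums and -0.03 without wild-type replicate 1. ACO1, the aconitase, had 122.65, 62.52 and 90.92 FPKM in the knockout, against 54.31 and 70.92 FPKM in the wild type (0.51 ± 0.28 SE, limma, adjusted p = 0.373). Dropping knockout replicate 1 gave a log2 fold change of 0.28, and dropping wild-type replicate 1 gave 0.32. Knockout replicate 2 fell between the wild-type libraries. CIT1, the mitochondrial citrate synthase, had 193.77, 144.15 and 189.93 FPKM in the knockout, against 123.63 and 128.7 FPKM in the wild type, without overlap (0.46 ± 0.14 SE, limma, adjusted p = 0.189). COX4, a cytochrome c oxidase subunit, was also above both wild-type libraries in each knockout library, at 168.18, 158.41 and 171.08 FPKM in the knockout against 138.3 and 142.08 FPKM in the wild type. HEM1, which makes the first heme precursor, was below them, at 34.37, 36.49 and 38.38 FPKM in the knockout against 42.98 and 48.79 FPKM in the wild type (-0.32 ± 0.10 SE, limma, adjusted p = 0.201). CYC1, on the lists of both Hap complex and Hap1 targets, had the most negative value of the 17, at -0.46, and is described next.

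The paired genes of cytochrome c, both under Hap1 and CYC1 also under the Hap complex, had values of opposite sign. CYC1, which encodes iso-1-cytochrome c, had 54.81, 70.17 and 53.84 FPKM in the knockout, against 80.77 and 83.14 FPKM in the wild type (-0.46 ± 0.13 SE, limma, adjusted p = 0.182). CYC7, which encodes the iso-2 form, had 459.63, 375.47 and 417.87 FPKM in the knockout, against 304.09 and 248.05 FPKM in the wild type (0.60 ± 0.13 SE, limma, adjusted p = 0.132). Neither gene overlapped between groups, where 28% of all genes were lower in this way and 13.1% higher. Neither passed the threshold, and CYC7 was above CYC1 in all 5 libraries. Over the 8 Hap1 targets the median was -0.04, with 4 positive and 4 negative values, and it was 0.09 with the length trend removed, 0.03 with median-ratio scaling and 0.01 without wild-type replicate 2. CTT1, the cytosolic catalase, had 36.93, 38.05 and 26.74 FPKM in the knockout, against 20.66 and 23.85 FPKM in the wild type. YHB1, a nitric oxide oxidoreductase, had 497.47, 527.6 and 400.86 FPKM in the knockout, against 613.94 and 589.44 FPKM in the wild type.

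Targets of Cat8 and Sip4 were low in both groups, as 11 of the 12 stayed under 17 FPKM in every library. The exception was MDH2, the cytosolic malate dehydrogenase, with 240.1, 124.17 and 217.63 FPKM in the knockout, against 113.27 and 137.81 FPKM in the wild type (0.57 ± 0.29 SE, limma, adjusted p = 0.339). Its knockout replicate 2 fell between the wild-type libraries. PCK1, which commits carbon to gluconeogenesis, had 8.7, 10.83 and 8.24 FPKM in the knockout, against 9.3 and 6.8 FPKM in the wild type. ICL1, the isocitrate lyase of the glyoxylate cycle, had 12.55, 15.81 and 11.06 FPKM in the knockout, against 15.4 and 15.76 FPKM in the wild type. The acetate transporter gene ADY2, on the lists of both Cat8 and Adr1 targets, had 2.85, 3.56 and 4.27 FPKM in the knockout, against 5.34 and 3.97 FPKM in the wild type. Of the 12 values 8 were positive, with a median of 0.12 that turned to -0.03 without wild-type replicate 2 and was 0.04 with equal FPKM sums and 0.22 with the length trend removed.

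Adr1 targets, which serve ethanol, glycerol and fatty acid use, had a median of -0.02 over 12 genes, 4 of them positive, and of 0.09 with the length trend removed. It was also positive with median-ratio scaling (0.04) and without knockout replicate 3 (0.05). The replicate block gave the same 0.05, as it leaves knockout replicate 3 no weight. The median was -0.10 with equal FPKM sums, -0.09 without knockout replicate 2 and -0.15 with both. ALD4, the mitochondrial aldehyde dehydrogenase, had 87.03, 75.86 and 77.79 FPKM in the knockout, against 60.93 and 64.97 FPKM in the wild type, without overlap (0.34 ± 0.10 SE, limma, adjusted p = 0.182).

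Among 17 genes of the Snf1 kinase, its partners and the glucose repressors, 6 values were positive and 11 negative, and the median was -0.05. It turned to 0.01 both with median-ratio scaling and with the length trend removed, and was -0.15 with equal FPKM sums. MIG2, a glucose-induced repressor related to Mig1, had 37.64, 25.33 and 40.33 FPKM in the knockout, against 24.03 and 21.1 FPKM in the wild type (0.56 ± 0.20 SE, limma, adjusted p = 0.227). TUP1, the corepressor that Mig1 recruits, had 65.8, 67.04 and 57.11 FPKM in the knockout, against 78.65 and 80.57 FPKM in the wild type (-0.33 ± 0.10 SE, limma, adjusted p = 0.196), and its log2 fold change was -0.17 with the length trend removed (limma, adjusted p = 0.489). Neither overlapped between groups. Of 9 other regulators of carbon source and oxygen response 7 had negative values, with a median of -0.14 that turned to 0.03 with the length trend removed and was -0.07 without wild-type replicate 2. RTG1, of the retrograde pathway from mitochondria to nucleus, had 42.3, 53.85 and 40.95 FPKM in the knockout, against 59.36 and 59.89 FPKM in the wild type (-0.39 ± 0.13 SE, limma, adjusted p = 0.214). PIP2, an activator of fatty acid use, had 11.61, 11.92 and 9.86 FPKM in the knockout, against 12.72 and 15.77 FPKM in the wild type, and its log2 fold change of -0.33 was -0.10 with the length trend removed. ROX1, the repressor of low-oxygen genes, had 74.08, 95.43 and 79.19 FPKM in the knockout, against 106.4 and 92.18 FPKM in the wild type.

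**Figure D4:**
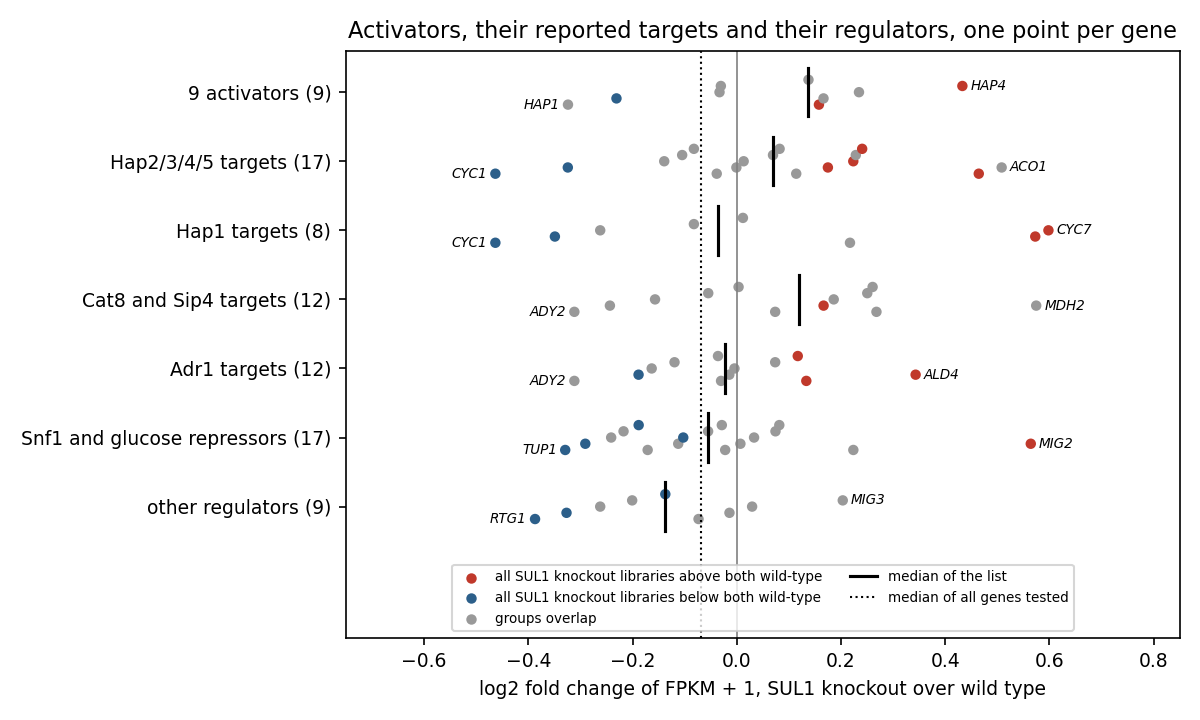
Log2 fold changes of FPKM + 1, SUL1 knockout over wild type, one point per gene, for the 9 activators and 6 lists of their reported targets and regulators; black bars are list medians, the dotted line is the median of all genes tested, and the gene at each end of a list is named. List medians lie between -0.14 and 0.14, and CYC1 and CYC7 mark the ends of the Hap1 targets.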

How the data were processed

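Both deposited tables list FPKM, per the file headers, with 1 column a library and 1 table a strain, and the authors scaled each column on its own. Division by length leaves uneven coverage of long transcripts in the values. The submitters' processing notes name HISAT2 2.1.0, Bowtie2, RSEM 1.3.1, DESeq2 1.4.5 and build R64, without roles. The sources used here do not give the strand setting or annotation, and none of the 9 genes overlaps another in R64. Library depth came from the spacing of low FPKM values, as the depth and length offset that put most of them within 0.15 of whole fragments. The share reached was 87.0% to 92.6% per library. Chance gives 30.0% at a fixed depth, and the share that such a search reaches by chance was not worked out. The estimated depth served for precision only.

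Genes averaging 1 FPKM or more (5712 of 5886) entered limma 3.58.1 (R 4.3.3) as log2(FPKM + 1), a scale that understates changes of low genes, with genotype alone and trended, robust moderation. The fit was tested on simulated data. Other steps used Python 3.11.15, pandas 2.3.3 and scipy 1.17.1. The activators and lists were chosen with earlier results of these data known. The genes named are the 9, SUL1, the leading genes of each list (up to 3 past the threshold, otherwise the 2 with the largest change) and the 3 profiles nearest HAP4. COX4, HEM1, YHB1, PCK1, ICL1 and ROX1 were named after their values were seen, as were the genes called without knockout replicate 2. MFA1 and MFA2 were not analysed here. There were 15 alternative fits.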

Additional observations from a re-analysis of the deposited data

How the results depend on the processing

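The 9 activators gave 134 alternative estimates, of which 13 had the opposite sign and 2 passed the threshold, both of HAP1 without knockout replicate 2. HAP1, HAP3, HAP4, HAP5 and RDS2 kept their sign in all 15 fits, with ranges of -0.56 to -0.02, 0.04 to 0.22, 0.12 to 0.74, -0.32 to -0.17 and 0.07 to 0.26 on the log2 scale. The opposite sign was found for HAP2 with median-ratio scaling (0.033) and for SIP4 with it (0.022), and for SIP4 with the length trend removed (0.16, and 0.17 without knockout replicate 2 as well). CAT8 read -0.10 with equal FPKM sums and knockout replicate 2 left out. Leaving out single libraries gave log2 fold changes of -0.20 to 0.14 for HAP2, -0.056 to 0.33 for CAT8, -0.21 to 0.14 for SIP4, -0.085 to 0.55 for ADR1 and -0.014 to 0.39 for PCK1. It also gave 0 to 1 activators, 0 to 11 of the 70 list genes and 0 to 894 of all genes past the threshold. The count over all genes was 15 with all libraries, 8 with equal FPKM sums and 6 with the length trend removed. Pairs of choices added after seeing the data, each without knockout replicate 2, gave 1365 genes, 14 list genes and 1 activator with equal FPKM sums, and 288, 8 and 0 with the length trend removed. Equal FPKM sums moved the median of all genes to -0.16. The replicate numbers are not stated to pair the samples. With the replicate block 0 genes passed (399 at an unadjusted p under 0.05, limma), and HAP2 read 0.029. SUL1, the deleted gene, was itself not called in that fit (limma, adjusted p = 0.125). That no call of the 9 activators changed there is therefore no sign of robustness. Knockout replicate 3 has no same-numbered partner, so the block leaves it no weight. Deviations of same-numbered libraries from their group means correlated at -0.37 and -0.43 across genes. Those of knockout replicate 1 with wild-type replicate 2, and of knockout replicate 2 with wild-type replicate 1, correlated at 0.37 and 0.43. Deviations of only 2 wild-type libraries mirror each other, so the equal sizes are forced and cannot decide whether samples are paired. The cause was not tested for any of these shifts. Fits without a wild-type library assume that the remaining one varies like the knockout libraries. The fit without knockout replicate 3 gave 0 genes, with 624 at an unadjusted p under 0.05 (limma). SUL1 was thus missed in it (limma, adjusted p = 0.0516), as it was in the fits without a wild-type library. Unchanged calls in these fits say nothing of the activators. The wild type rests on 2 libraries, and deposited FPKM do not carry the counts that a count test needs.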
